A study of Mus musculus with 180 samples.

Results

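The genes described here encode enzymes that turn arachidonic acid, arginine and cis-aconitate into the small mediators of activated macrophages. They are *Ptgs1*, *Ptgs2*, *Ptges*, *Nos2*, *Acod1*, *Arg1*, *Arg2* and *Ass1*, chosen by name from the symbols of the deposited table, and all 8 were found among its 45070 genes. Bone marrow-derived macrophages (BMDMs), grown in culture from the marrow of young male wild-type C57/BL6 mice, were given 1 of 58 clinical kinase inhibitors (CKIs), or the vehicle DMSO, for 1 h and then lipopolysaccharide (LPS) at 10 ng/ml for 2 h. There were 3 samples for each CKI and 6 for DMSO, the latter in 2 sets of 3, and 180 samples in all. Every sample, the controls included, had received LPS, so the values show how a CKI changed expression under LPS and not the induction by LPS itself. Each CKI was used at 1 concentration, which differed between CKIs, and pairs of CKIs are therefore set side by side without a test.

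Prostaglandins are made in steps. Cyclooxygenase, constitutive as the product of *Ptgs1* and inducible by bacterial stimuli as the product of *Ptgs2*, converts arachidonic acid to prostaglandin H2, which the microsomal synthase encoded by *Ptges* turns into prostaglandin E2. The inducible nitric oxide synthase (*Nos2*) makes nitric oxide and citrulline from arginine, argininosuccinate synthase (*Ass1*) takes part in turning citrulline back into arginine, and the cytosolic and mitochondrial arginases (*Arg1* and *Arg2*) compete for arginine. *Acod1* encodes the mitochondrial enzyme that decarboxylates cis-aconitate, an intermediate of the tricarboxylic acid (TCA) cycle, to itaconate, one of the most abundant metabolites of LPS-treated macrophages.

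The stretches before the start sites of *Ptgs2*, *Ptges* and *Acod1* are shown because much of what follows concerns these LPS-inducible enzymes. They run from 250 bases before to 30 after the annotated start, 5′ to 3′ on the strand of the gene, and are RefSeq sequences of GRCm38.p6, the build called mm10. The RefSeq table used here held the start sites of 5 of the 8 genes, without *Nos2*, *Arg1* and *Arg2*. Capitals mark matches on either strand to any of 6 motifs, namely the kB motif GGAANTTCC, the CRE core TGACG, the E-box CACGTG, the TATA motif TATAAA, the AP-1 motif TGANTCA and the ISRE motif.
*Ptgs2* (chr1:150099781-150100060, + strand): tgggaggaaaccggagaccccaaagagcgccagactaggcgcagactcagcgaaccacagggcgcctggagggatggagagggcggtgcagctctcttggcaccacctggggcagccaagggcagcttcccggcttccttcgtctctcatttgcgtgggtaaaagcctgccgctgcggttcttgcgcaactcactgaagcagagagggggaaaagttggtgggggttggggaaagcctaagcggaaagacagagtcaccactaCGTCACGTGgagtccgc
*Ptges* (chr2:30903268-30903547, - strand): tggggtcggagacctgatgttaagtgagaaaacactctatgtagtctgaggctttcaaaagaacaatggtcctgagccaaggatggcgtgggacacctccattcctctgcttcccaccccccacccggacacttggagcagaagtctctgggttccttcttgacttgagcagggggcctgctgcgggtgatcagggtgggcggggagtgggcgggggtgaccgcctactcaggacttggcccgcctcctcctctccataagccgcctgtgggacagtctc
*Acod1* (chr14:103046762-103047041, + strand): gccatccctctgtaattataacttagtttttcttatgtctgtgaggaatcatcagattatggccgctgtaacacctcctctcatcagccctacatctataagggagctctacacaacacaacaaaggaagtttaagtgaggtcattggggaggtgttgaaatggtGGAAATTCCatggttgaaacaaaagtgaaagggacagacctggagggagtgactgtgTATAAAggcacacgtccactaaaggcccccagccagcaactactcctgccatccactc
In the *Ptgs2* sequence the capitals are a CRE core on the other strand, which begins 14 bases after the annotated start, overlapped by an E-box that begins at base 17. The *Acod1* sequence holds the kB match GGAAATTCC from base -85 and TATAAA from base -28, and none of the 6 motifs was found in the *Ptges* window. Among 32851 promoter windows of 300 bases, 0.9% held the kB motif, 20.8% the CRE core, 7.2% the E-box, 13.6% TATAAA, 7.8% the AP-1 motif and 3.4% the ISRE motif. These are matches of letters in a window and say nothing on the binding of a factor.

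The authors deposited read counts on exons, scaled on genes of stable expression and rounded, which are called normalized values here. Their totals lay between 9477340 and 12273349 per sample, with a median of 10331211 in the DMSO samples and 10560589.5 in the CKI samples. The share of mitochondrial transcripts was 0.759 to 1.94% in the DMSO samples and higher with some CKIs, for example 3.24 to 4.29% with Pimasertib. The 9 macrophage markers summed to 101955 or more in every DMSO sample. In the same samples the 3 markers of T cells in the table summed to at most 2, the 5 of mast cells and basophils to at most 1, the 4 of erythroid cells to at most 1 and the 4 of B cells to at most 21, while the 4 dendritic cell markers reached 89, the 5 fibroblast markers 147, the 4 endothelial markers 360 and the 8 neutrophil markers 1008. Of the endothelial markers, *Kdr* alone reached 356. In such bulk samples, fewer cells of a type and less RNA per cell cannot be told apart.

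The table places the members on 6 chromosomes of mm10 and counts reads over their exons. *Ptgs1* lies at chr2:36230426-36252272, *Ptges* at chr2:30889471-30903297 and *Ass1* at chr2:31470270-31520670. *Ptgs2* lies at chr1:150100031-150108234, *Nos2* at chr11:78920787-78960226 and *Acod1* at chr14:103047012-103056573. The arginase genes lie apart, *Arg1* at chr10:24915207-24927470 and *Arg2* at chr12:79130788-79156301. *Ptges* and *Arg1* are on the - strand and the others on the + strand.

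Per kb of exon, the levels of the members in the DMSO samples differed widely. *Acod1* was highest, with a mean of 9564 per kb and a range of 7110 to 14143. *Ptgs2* followed with 637 per kb (287 to 881) and *Nos2* with 208 (101 to 378), and their ranges overlapped. *Ass1*, *Ptgs1* and *Ptges* had 113, 105 and 95.01 per kb, *Arg2* had 49.99, and each range from *Nos2* down overlapped that of the next gene. *Arg1* had 0.79 per kb. Its 6 DMSO values were 1, 0, 3, 0, 0 and 3, its highest value in any sample was 8, and 50 of the 180 samples had 0. *Arg1*, a marker of macrophages alternatively activated by IL-4, thus lay near the detection limit with every CKI, no difference was detectable at this depth, and it was the only member with a mean normalized value under 10, the minimum for testing.

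**Figure D1:**
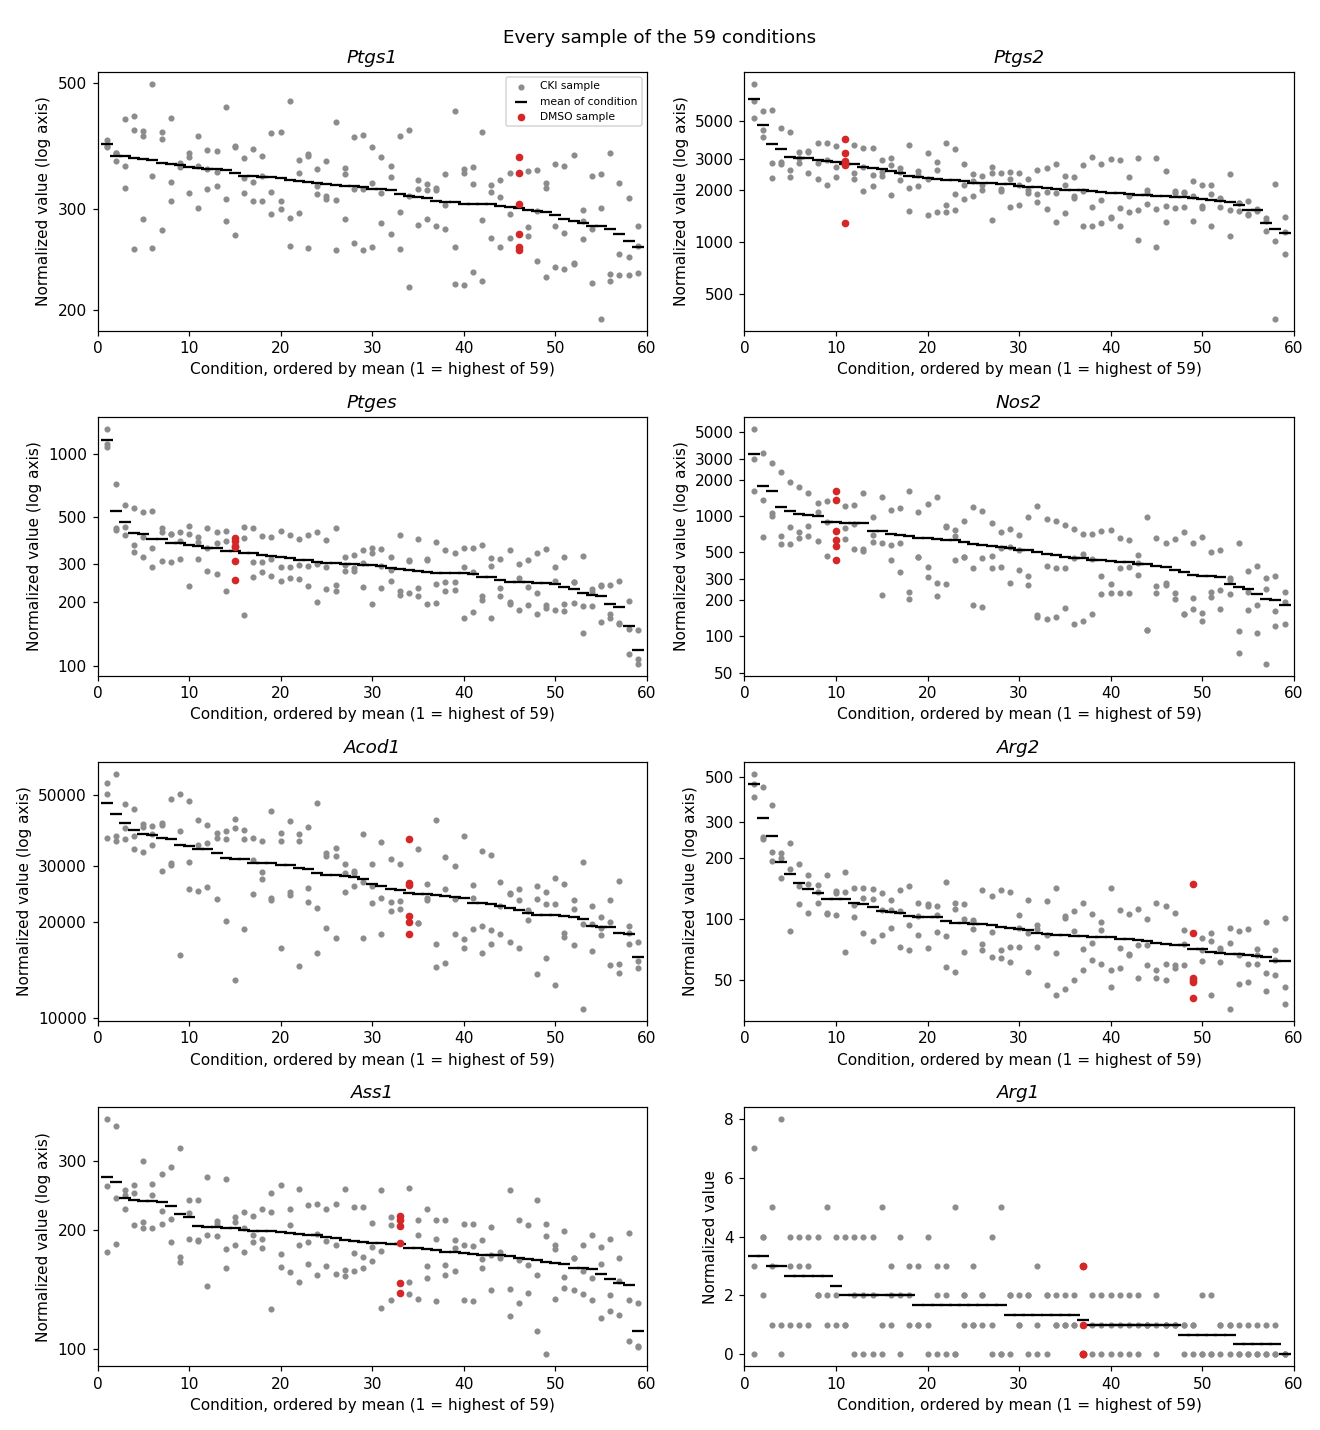
Normalized values of every sample for the 8 genes (y axis, log scale except for *Arg1*), with the 59 conditions on the x axis ordered by their mean from highest to lowest. Grey points are CKI samples, red points the 6 DMSO samples and black bars the means, and most conditions lie on a gradual slope with the highest mean from Midostaurin for *Ptges* and from Omipalisib for *Ptgs2*, *Nos2*, *Acod1* and *Arg2*.

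The other 7 genes were compared between each CKI and the 6 DMSO samples with limma on log2(normalized value + 1), where the added 1 shrinks the fold change of genes with low values, with Benjamini-Hochberg adjustment over the 12714 genes tested and a threshold of 0.05. Over all 59 conditions, at these differing concentrations, 5 of the 7 genes varied by the moderated F test, as did 48.6% of all genes tested. These were *Ptgs2*, *Ptges*, *Nos2*, *Acod1* and *Arg2*, whereas *Ptgs1* (adjusted p = 0.908) and *Ass1* (adjusted p = 0.109) did not pass. Of the 406 pairs of gene and CKI, 13 (3.2%) were higher and 7 (1.72%) lower than DMSO, against 2.52% and 1.65% of the pairs of all genes tested. The share of calls was thus close to that of all genes. The calls came from 11 CKIs, and with the other 47 no member passed the threshold.

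Omipalisib, designed against PI3K and mTOR, raised 4 of the 7 genes, *Ptgs2*, *Nos2*, *Acod1* and *Arg2*, and lowered none, where 17.5% of all genes were higher and 8.16% lower. BGT226, of the same target class, raised *Ptgs2* and *Arg2* and lowered *Ass1* (all genes, 24.1% higher and 6.32% lower). The ERBB inhibitor Afatinib raised *Arg2* and lowered *Ptgs2* and *Ptges* (9.06% and 12.8%). Midostaurin, an inhibitor of many kinases including PKC and FLT3, raised *Ptges* and *Arg2* (2.63% of all genes were higher), and the JAK inhibitor Filgotinib lowered *Ptges* and *Nos2* (14.6% lower). The remaining 6 CKIs changed 1 gene each. PH797804, a p38 inhibitor, lowered *Ptges* (1.25% of all genes lower). PF04691502, Apitolisib, AZD2014 and Lapatinib raised *Arg2*, with 8.86%, 12.7%, 6.06% and 18.1% of all genes higher, and the MEK inhibitor Pimasertib lowered *Ptgs2*, with 5.68% of all genes lower. All these differences use the same 6 DMSO samples.

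**Figure D2:**
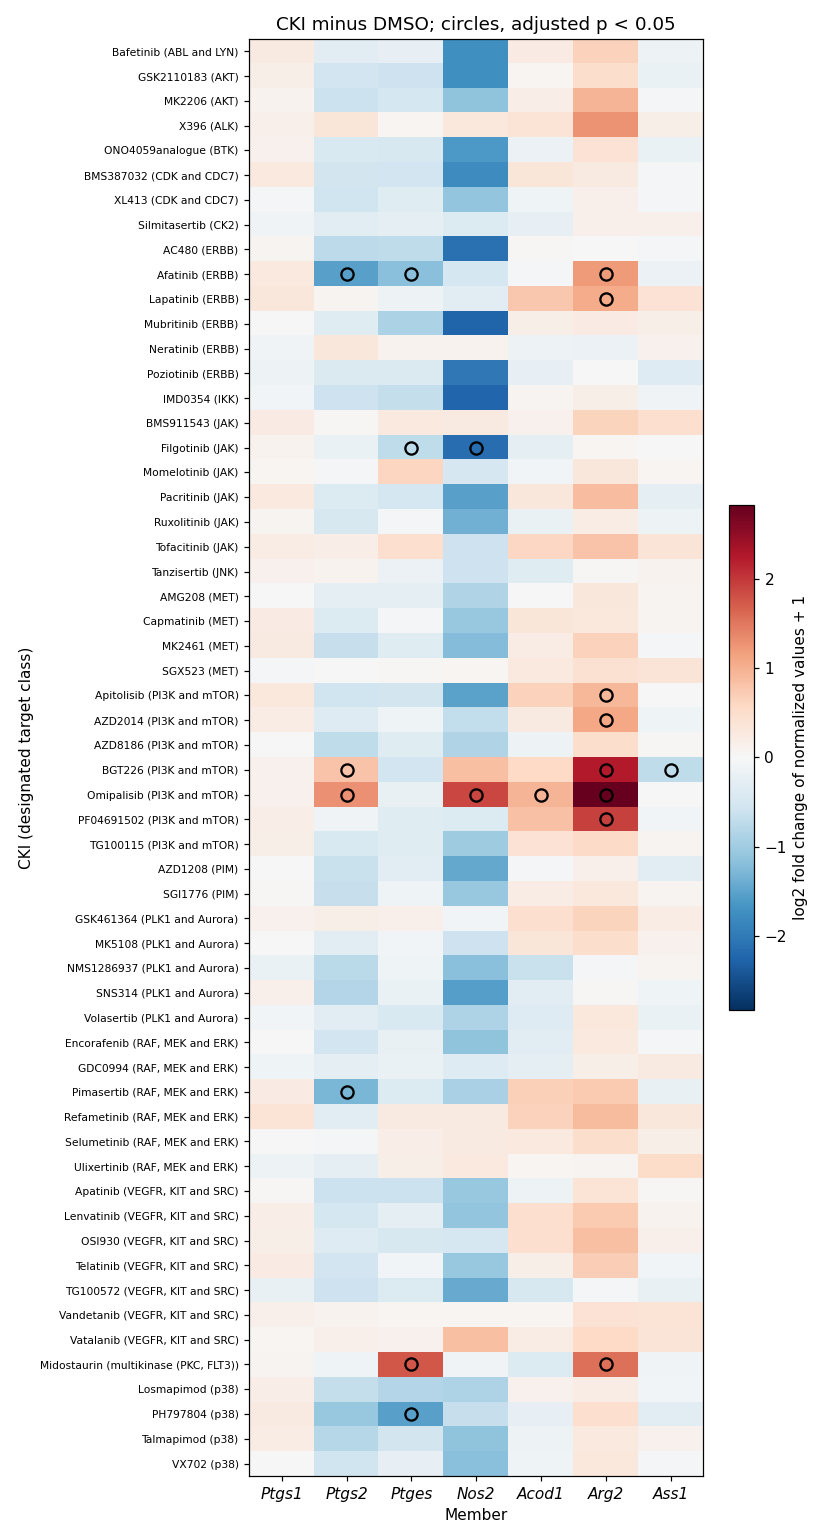
Log2 fold changes (CKI minus DMSO, on normalized values + 1) of the 7 genes tested (x axis) with the 58 CKIs (y axis, with designated target class in parentheses). Circles mark the 20 pairs with an adjusted p-value under 0.05, of which 8 are in the *Arg2* column and none in the *Ptgs1* column.

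*Ptgs1*, the constitutive cyclooxygenase, had values of 347, 307 and 258 in the first DMSO set and 370, 255 and 272 in the second. The means with the CKIs ranged only from 257 with TG100572 to 390 with Refametinib. No CKI passed the threshold, and 1 of the 58 had an unadjusted p under 0.05. With Refametinib the mean was 390 ± 5.29 (SD, n = 3) and the lowest sample, with 386, lay above all DMSO samples (log2 fold change 0.39 ± 0.19 SE, adjusted p = 0.193), and with Lapatinib 377, 376 and 364 (0.32 ± 0.19, adjusted p = 0.208). With both CKIs the samples paired with DMSO by replicate number, and a fit with the replicate number as a block gave adjusted p-values of 0.0449 and 0.0494. Each pair passed in only this 1 of 26 alternative settings, and with the mitochondrial share as a covariate beside the block the differences were 0.26 (adjusted p = 0.446) and 0.17 (adjusted p = 0.419). These CKIs held the first and second rank of the 59 conditions, with no overlap between their samples, and all other neighbours in the order overlapped. *Ptgs2* and *Ptges* each had 1 such gap as well, and *Nos2*, *Acod1*, *Arg2* and *Ass1* none.

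*Ptgs2*, the inducible cyclooxygenase, had 2824, 3265 and 1280 in the first DMSO set and 2786, 3930 and 2948 in the second, so that 1 DMSO sample lay well below the others. With Omipalisib it had 6515, 5238 and 8228, a 2.43-fold rise (log2 fold change 1.28 ± 0.32 SE, adjusted p = 0.00115). With BGT226 it had 4420, 4068 and 5739, a 1.74-fold rise (0.80 ± 0.32, adjusted p = 0.0457). All samples of both CKIs exceeded the highest DMSO sample. The rise with BGT226 did not pass the threshold without the low DMSO sample, set 1 replicate 3 (0.59, adjusted p = 0.180). It also did not pass without replicate 1 (0.84, adjusted p = 0.143) or replicate 3 (0.66, adjusted p = 0.174) of the CKIs. Here and below, leaving out a CKI replicate removed that number from every CKI in the same fit. A call lost in this way is therefore not tied to the named sample alone. Under median of ratios scaling the rise was 0.61 (adjusted p = 0.154), and it was kept in 15 of 26 alternative settings. Omipalisib and BGT226 held the first and second rank of the 59 conditions, but their samples overlapped, as they did with those of the neighbours below.

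Falls of *Ptgs2* passed the test with Afatinib and Pimasertib. Afatinib gave 1011, 359 and 2172 (log2 fold change -1.54 ± 0.32 SE, adjusted p = 0.000143), a wide spread in which the highest sample lay above the lowest DMSO sample. Without replicate 2 of every CKI, the sample with 359 among them, the difference was -0.86 and did not pass (adjusted p = 0.0938). Nor did it pass in a fit of Afatinib and DMSO alone (adjusted p = 0.0868). Pimasertib, which blocks MEK1 and MEK2, gave 1134, 1393 and 853 (-1.28 ± 0.32, adjusted p = 0.00397). 2 of these samples lay below all DMSO samples, and against DMSO set 1 alone the difference was -1.04 (adjusted p = 0.0542). Over the 6 CKIs of the RAF, MEK and ERK class the log2 fold change ran from -1.28 to -0.03, and only Pimasertib passed. Selumetinib and Refametinib of this class had means of 2643 and 2184. With PH797804 the values were 1366, 1322 and 1150 (-1.08 ± 0.32, adjusted p = 0.0501), just over the threshold. These samples paired with DMSO by replicate number and the block gave an adjusted p of 0.0238, and the pair also passed with the mitochondrial share beside the block. The other p38 inhibitors, Losmapimod, Talmapimod and VX702, gave mean values of 1869, 1535 and 1821, and none passed (adjusted p = 0.580, 0.465 and 0.636). In the order of means, the range of SNS314 (1500 to 1541) lay above that of PH797804, the only gap between neighbours in the order.

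*Ptges*, the terminal synthase of prostaglandin E2, was raised by 1 CKI and lowered by 3. Its DMSO values were 311, 363 and 398 in the first set and 254, 388 and 365 in the second. Midostaurin gave 1074, 1107 and 1309, a 3.38-fold rise (log2 fold change 1.76 ± 0.27 SE, adjusted p = 7.36e-07). Its lowest sample exceeded the highest sample of Momelotinib, the next condition, at 720, and this was the only gap between neighbours for *Ptges*. *Ptgs2* with Midostaurin had 2266, 2551 and 2665, within the DMSO range (log2 fold change -0.11, adjusted p = 0.907).

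PH797804 lowered *Ptges* to 102, 107 and 148, 2.9-fold below DMSO (log2 fold change -1.54 ± 0.27 SE, adjusted p = 3.65e-05). Afatinib lowered it to 149, 113 and 201 (-1.18 ± 0.27, adjusted p = 0.000562). The samples of both CKIs lay below all DMSO samples. Filgotinib gave 191, 143 and 330, of which the last lay within the DMSO range (-0.72 ± 0.27, adjusted p = 0.0460), and the call was kept in 12 of 26 alternative settings. Without replicate 2 of every CKI the difference was -0.45 (adjusted p = 0.334), and without replicate 1 of every CKI it was -0.65 (adjusted p = 0.202). The call was also lost without replicate 2 or 3 of either DMSO set (-0.70 to -0.67). The means with Losmapimod, Talmapimod and VX702 were 194, 249 and 294, all under the DMSO mean of 346 ± 54.4 (SD), with adjusted p-values of 0.361, 0.608 and 0.837. In all, 7 of 58 CKIs had their 3 samples below, and 3 above, the 6 DMSO samples for *Ptges*, against 2.02% and 4.52% of the pairs of all genes tested.

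**Figure D3:**
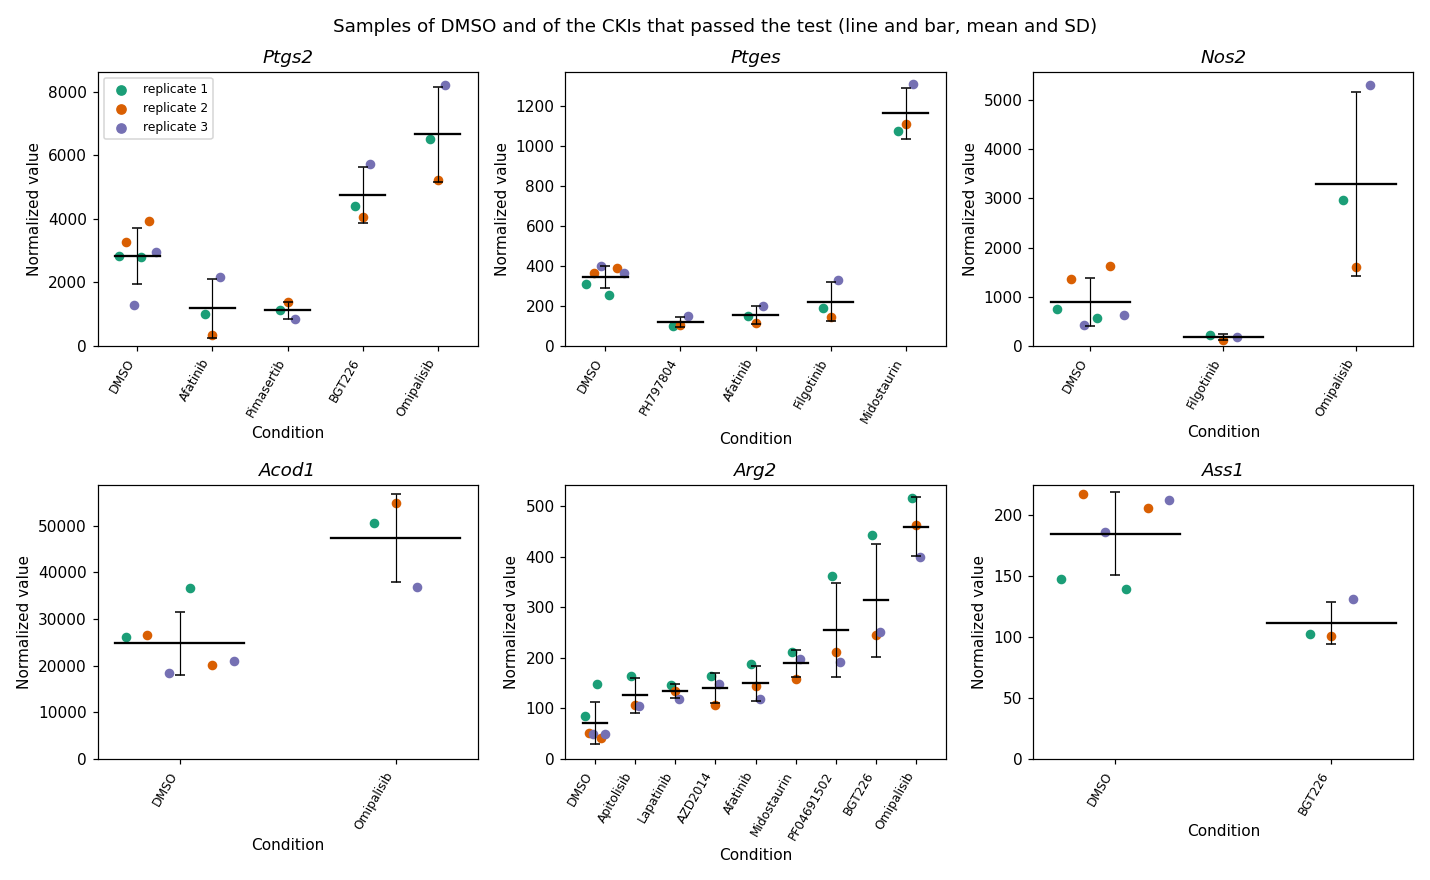
Normalized values (y axis, from 0) of each sample of DMSO and of the CKIs that passed the test, for the 6 genes with at least 1 call. Colours give the replicate number, lines the mean and bars the SD (n = 6 for DMSO and 3 for each CKI), and the samples of Omipalisib, BGT226, PF04691502 and Midostaurin lie above all DMSO samples for *Arg2*.

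*Nos2*, the inducible nitric oxide synthase, had the widest spread between samples of the 7 genes. Its DMSO values were 745, 1360 and 432 in the first set and 567, 1626 and 633 in the second, with replicate 2 the highest of both sets. Omipalisib gave 2961, 1605 and 5308 (log2 fold change 1.88 ± 0.68 SE, adjusted p = 0.0309), so that its lowest sample lay just under the highest DMSO sample. This rise did not pass without replicate 1 (1.87, adjusted p = 0.117) or 3 (1.45, adjusted p = 0.188) of every CKI. It also did not pass without replicate 3 of DMSO set 1 (1.70, adjusted p = 0.0714) or set 2 (1.81, adjusted p = 0.0507), and was kept in 16 of 26 settings. BGT226 ranked second with 1350, 668 and 3351 and did not pass (0.86, adjusted p = 0.358). Filgotinib lowered *Nos2* to 232, 126 and 192, below all DMSO samples (-2.16 ± 0.68, adjusted p = 0.0154). Without replicate 1 of every CKI the difference was -2.35 (adjusted p = 0.0582), and against DMSO set 1 alone the adjusted p was 0.0690. The ERBB inhibitors AC480, Mubritinib and Poziotinib also gave only samples below DMSO, with means of 200, 203 and 224. They did not pass (adjusted p = 0.187, 0.0574 and 0.496), although Mubritinib did so under median of ratios scaling (adjusted p = 0.0443). The ERBB inhibitors Neratinib, Lapatinib and Afatinib had means of 881, 709 and 633, and their samples overlapped those of DMSO. SNS314 and GSK2110183, of other target classes, also gave only samples below DMSO. With 6 of the 58 CKIs all samples lay below the 6 DMSO samples, against 2.02% of the pairs of all genes tested. On the log2 scale *Nos2* was below DMSO with 47 of the 58 CKIs, with a median difference of -0.89. *Ptgs2* was below with 47 as well and *Ptges* with 45. The median gene tested was below with 20 and had a median difference of 0.07. All these differences share the same DMSO samples, with 1360 and 1626 the highest for *Nos2*, and are not separate observations.

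*Acod1*, the most highly expressed member, had 26072, 26454 and 18400 in the first DMSO set and 36603, 20086 and 20896 in the second. Only Omipalisib passed the test, with 50448, 54876 and 36866, all above DMSO (log2 fold change 0.96 ± 0.31 SE, adjusted p = 0.0146). Without replicate 1 of every CKI the difference was 0.90 (adjusted p = 0.0601) and without replicate 2 of every CKI it was 0.84 (adjusted p = 0.138). Against DMSO set 2 alone the adjusted p was 0.0655. PF04691502, Lapatinib, Pimasertib and Refametinib followed in the order of means with 43861, 41037, 38944 and 37876. For Apitolisib, Lapatinib and Pimasertib, whose samples paired with DMSO by replicate number, the adjusted p was 0.131, 0.0604 and 0.0961 without and 0.0491, 0.0161 and 0.0314 with the block, at log2 fold changes of 0.64, 0.76 and 0.68. These CKIs had mitochondrial shares above the DMSO median of 0.989%, with a median of 3.25% for Apitolisib, 1.92 to 3.71% for Lapatinib and 3.24 to 4.29% for Pimasertib, and with the share as a covariate beside the block none of them passed, at differences of 0.07, 0.24 and -0.13 (adjusted p = 0.893, 0.470 and 0.861). The lowest mean was 15600 with NMS1286937. *Gm41235*, an annotated transcript on the opposite strand that overlaps *Acod1*, had values of 19 to 56 in the DMSO samples and at most 117 in any sample.

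*Arg2*, the mitochondrial arginase, had the most calls. Its DMSO values were 85, 51 and 50 in the first set and 149, 41 and 49 in the second, with replicate 1 the highest of both. Omipalisib gave 516, 462 and 399, a 7.1-fold rise (log2 fold change 2.83 ± 0.34 SE, adjusted p = 1.68e-11). BGT226 gave 443, 246 and 252 (2.23 ± 0.34, adjusted p = 3.79e-08), and PF04691502 gave 361, 212 and 192 (1.93 ± 0.34, adjusted p = 1.44e-05). These CKIs share PI3K and mTOR as designated targets, and all 9 of their samples lay above the highest DMSO sample.

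The rises of *Arg2* with the remaining CKIs were smaller. Midostaurin gave 211, 159 and 198, again above all DMSO samples (log2 fold change 1.55 ± 0.34 SE, adjusted p = 0.00103). Afatinib (1.20, adjusted p = 0.00639), AZD2014 (1.10, adjusted p = 0.0124), Lapatinib (1.06, adjusted p = 0.0201) and Apitolisib (0.94, adjusted p = 0.0458) gave means of 150, 140, 134 and 126, and their samples overlapped the DMSO sample with 149. The remaining inhibitors of the PI3K and mTOR class, AZD8186 and TG100115, did not pass, and over this class of 7 the log2 fold change ran from 0.49 to 2.83. The class pools inhibitors of PI3K, of mTOR and of both, so its CKIs are not alike in target. Of the 12714 genes tested, 2.68% were higher with 8 or more CKIs. *Arg2* was below DMSO on the log2 scale with 4 of the 58 CKIs, against 20 for the median gene.

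The calls of *Arg2* with Omipalisib, BGT226 and PF04691502 were kept in all 26 alternative settings. That with Midostaurin was kept in 24 and that with Afatinib in 23. The call with Afatinib was lost without replicate 2 of every CKI (1.21, adjusted p = 0.0854) and in a fit of Afatinib and DMSO alone (adjusted p = 0.0839). The call with AZD2014 was lost without replicate 3 of every CKI (1.05, adjusted p = 0.0781) and against DMSO set 2 alone (adjusted p = 0.0595). Apitolisib kept its call in 9 settings and Lapatinib in 16. Without replicate 1, 2 or 3 of every CKI the adjusted p was 0.111 to 0.136 for Apitolisib and 0.0588 to 0.0935 for Lapatinib. Each call was also lost without DMSO set 2 replicate 2 (adjusted p = 0.140 and 0.0685). That of Apitolisib was also lost without DMSO set 2 replicate 3 (0.0781) or DMSO set 1 replicate 2 or 3 (0.0786 and 0.0765). With the mitochondrial share as a covariate beside the block, the difference with Apitolisib was 0.55 (adjusted p = 0.236) and with Lapatinib 0.70 (adjusted p = 0.0568). Where samples paired with DMSO by replicate number, the block added calls of *Arg2* with Lenvatinib, Pimasertib and Refametinib, at log2 fold changes of 0.75, 0.75 and 0.90 and adjusted p-values of 0.0221, 0.0147 and 0.0327, against 0.114, 0.0972 and 0.122 without it. The mitochondrial share was 2.07 to 3.70% with Lenvatinib, 3.24 to 4.29% with Pimasertib and 1.23 to 4.45% with Refametinib, and with it beside the block none of these 3 passed, at differences of 0.39, 0.19 and 0.58 (adjusted p = 0.381, 0.800 and 0.435). The annotation places 2 genes of the opposite strand over *Arg2*. *Vti1b*, which overlaps its 3′ end, was at 882 on average with DMSO and 725 with Omipalisib and did not pass (adjusted p = 0.284). *Gm40462*, an uncharacterised RNA, had 2 to 7 with DMSO and 21 to 31 with Omipalisib. No source used here says that strand was used in counting, so reads of these genes and *Arg2* cannot be told apart where they overlap.

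*Ass1*, the enzyme of citrulline recycling, had 147, 217 and 186 in the first DMSO set and 139, 205 and 212 in the second. BGT226 gave 102, 101 and 131, all below DMSO (log2 fold change -0.71 ± 0.23 SE, adjusted p = 0.0110). Without replicate 1 or 2 of every CKI the difference was -0.65 each and did not pass (adjusted p = 0.0527 and 0.112). The highest means were 273 with Ulixertinib and 265 with BMS911543. With Lapatinib the samples had 227, 253 and 246, above all DMSO samples, and the test was not passed (0.41, adjusted p = 0.172). The values of *Ass1* are uncertain, because 911 of its 2359 stretches of 50 transcript bases (38.62%) also occur in *Gm5424* (chr10:62071022-62072571), an annotated copy that had 82 to 135 in the DMSO samples. With BGT226 *Gm5424* had 69 to 97, also lower, and did not pass the test (log2 fold change -0.49, adjusted p = 0.0723). How much of the *Ass1* difference comes from shared reads was not tested. The other members shared no such stretch with another gene.

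Over the means of the 59 conditions, *Ptgs2* and *Nos2* ran together with a Pearson r of 0.65 (Spearman 0.65), and with r = 0.51 without Omipalisib and BGT226, the conditions farthest from the median of *Ptgs2*. *Acod1* and *Arg2* had r = 0.65, or 0.56 without Omipalisib and PF04691502. For the successive enzymes *Ptgs2* and *Ptges* r was 0.46, and 0.61 without Omipalisib and BGT226. *Ptgs1* and *Ptgs2* had r = -0.09. These values describe condition means, and the labels do not say which conditions were prepared together. Within conditions, over the deviations of the samples from their means, *Ptgs2* and *Nos2* had r = 0.83 and *Acod1* and *Arg2* 0.78. Other pairs were as high, such as *Ptges* with *Nos2* (0.77) and with *Ass1* (0.76), while *Ptgs1* and *Ptges* had the lowest r, -0.50. These deviations also carry the differences between replicate numbers given below, and the pairs were not tested for a relation of their own.

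**Figure D4:**
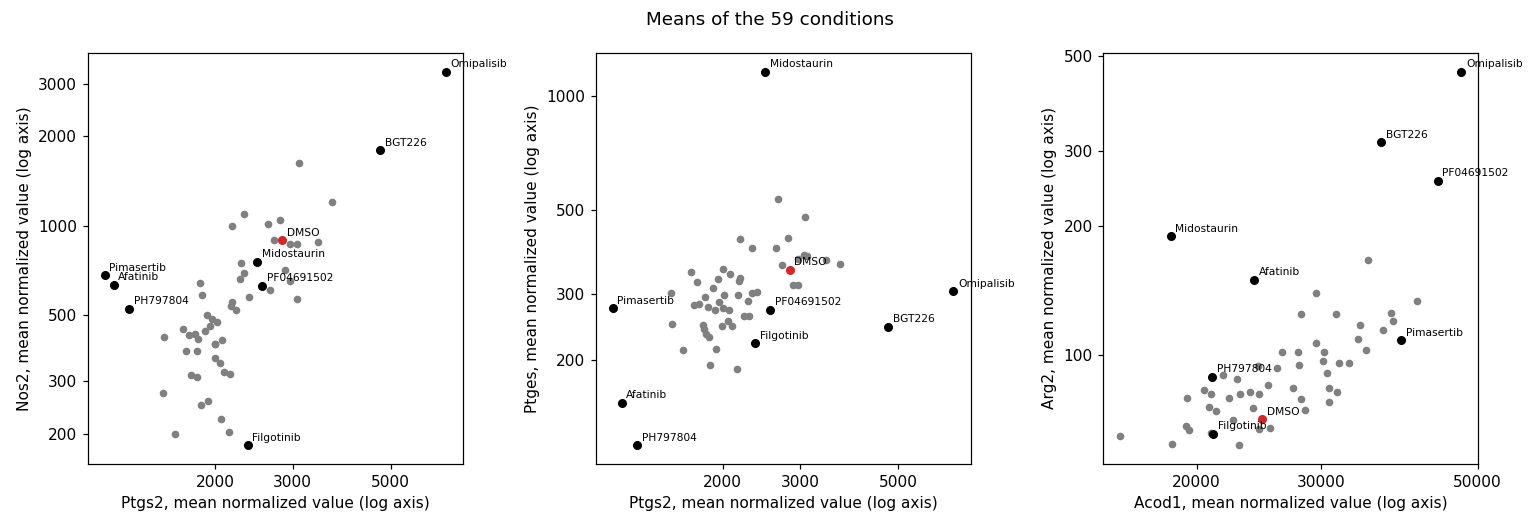
Mean normalized values of the 59 conditions (both axes log scale) for *Ptgs2* with *Nos2*, *Ptgs2* with *Ptges* and *Acod1* with *Arg2*. DMSO is red and named CKIs black, and Omipalisib and BGT226 lie at the upper right for *Ptgs2* with *Nos2* while Midostaurin is high for *Ptges* at a *Ptgs2* value near that of DMSO.

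The genes whose condition means followed each member most closely, by Pearson r of log2 values over the 59 conditions, were *Abr* (0.81), *Edn1* (0.80) and *Nr4a3* (0.78) for *Ptgs2*. For *Nos2* they were *Map3k8*, the kinase TPL2 (0.84), the complement gene *C3* (0.83) and *Pakap* (0.83). *Ptges* was closest to the IL-4 receptor gene *Il4ra* (0.81), *Pfkfb3*, a regulator of glycolysis (0.80), and *Rnd1* (0.80). *Acod1* was closest to *Tcf4* (0.92), *Cybb*, a subunit of the phagocyte NADPH oxidase (0.91), and *Anxa7* (0.90). *Arg2* was closest to the autophagy gene *Gabarapl1* (0.90), *Cyp4v3* (0.88) and *Csf2rb* (0.88). *Ptgs1* was closest to *Necap2* (0.81), *Pef1* (0.80) and *Dpp3* (0.80), and *Ass1* to the histidine decarboxylase gene *Hdc* (0.81), its copy *Gm5424* (0.80) and *Vcan* (0.74).

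Other genes of the pathways were counted for the 3 CKIs with 3 or more calls among the members. Over all genes tested, 17.5% were higher and 8.16% lower with Omipalisib, 24.1% and 6.32% with BGT226 and 9.06% and 12.8% with Afatinib. The counts of each list are descriptions beside these shares and were not tested against them. Of 27 genes of prostaglandin synthesis, transport and reception, among them the lipoxygenase and leukotriene genes *Alox5*, *Alox5ap*, *Lta4h*, *Ltc4s* and *Alox15*, 21 were tested. Omipalisib raised 2 and lowered 1 of them, with a median log2 fold change of 0.25 against 0.12 over all genes tested. BGT226 raised 4 and lowered 2 (median 0.23 against 0.21), and Afatinib raised 4 and lowered 3 (0.26 against 0.03). *Pla2g15*, a lysosomal phospholipase, rose with all of them, by 0.73, 1.37 and 0.71 with Omipalisib, BGT226 and Afatinib (adjusted p = 0.00375, 1.51e-08 and 0.00687). *Ptges3*, a cochaperone with prostaglandin E synthase activity, fell by 0.55 with Omipalisib (adjusted p = 0.00103), and *Alox5ap*, which serves leukotriene synthesis, rose by 0.30 (adjusted p = 0.0189). With BGT226 *Pla2g6* rose by 0.98 and *Pla2g4a*, the cytosolic phospholipase that releases arachidonic acid, by 0.72 (adjusted p = 0.00575 and 0.0213). With Afatinib *Ptger4*, a receptor of prostaglandin E2, fell by 1.45 from a mean of 1346 to 474 (adjusted p = 3.35e-07), and *Ptgir*, the prostacyclin receptor, rose by 0.93 (adjusted p = 0.00526).

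Of 30 genes of arginine transport, nitric oxide and polyamines, 23 were tested. Omipalisib raised 4 and lowered 2 (17.5% and 8.16% of all genes, and a median log2 fold change of -0.07 against 0.12 over all genes), BGT226 raised 5 and lowered 1 (24.1% and 6.32% of all genes, medians 0.25 and 0.21), and Afatinib raised 2 and lowered 2 (9.06% and 12.8%, medians 0.08 and 0.03). The share raised with Omipalisib and BGT226 was thus close to that of all genes. *Slc7a2*, an arginine transporter, rose by 1.05 with Omipalisib (adjusted p = 1.93e-05) and by 0.77 with BGT226 (adjusted p = 0.00156) and fell by 0.86 with Afatinib (adjusted p = 0.000840). *Slc3a2*, the heavy chain of several amino acid transporters, rose with Omipalisib (1.28), BGT226 (1.01) and Afatinib (1.09), with adjusted p-values of 6.42e-14, 6.38e-10 and 6.56e-10. *Sat1*, the acetyltransferase of polyamine breakdown, rose by 1.36 with Omipalisib and 1.49 with BGT226 (adjusted p = 5.94e-05 and 6.07e-06). *Aldh18a1*, which serves proline and ornithine synthesis, rose by 0.90 with Afatinib (adjusted p = 0.0138).

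Of 31 genes of itaconate and the TCA cycle, 30 were tested. Omipalisib raised 2 and lowered 7 of them, where 17.5% of all genes were higher and 8.16% lower, and BGT226 raised 0 and lowered 4, where 24.1% were higher and 6.32% lower. The medians were -0.15 against 0.12 and -0.10 against 0.21 over all genes, and with Afatinib 3 rose and 3 fell (9.06% and 12.8% of all genes, medians -0.07 and 0.03). *Slc13a3*, a plasma membrane carrier of dicarboxylates, fell by 1.31 with Omipalisib, 1.35 with BGT226 and 1.35 with Afatinib, from a DMSO mean of 77.2 to between 26.7 and 27.7. The mitochondrial citrate carrier gene *Slc25a1* fell by 0.89 with Omipalisib and 0.97 with Afatinib (adjusted p = 0.000293 and 0.000149). *Slc25a10*, the dicarboxylate carrier, fell by 0.76 with Omipalisib and 0.59 with BGT226, *Fh1*, the fumarate hydratase, by 0.54 with BGT226. *Dld*, the dihydrolipoamide dehydrogenase, rose by 0.60 with Afatinib (adjusted p = 0.0120).

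Broader values moved with these results. Of 9 genes known for their response to LPS, 6 rose with Omipalisib, where 17.5% of all genes were higher. The sum of the 9 was 194657 to 215385 against 110542 to 141126 with DMSO. It is weighted to *Ccl4* and *Nfkbia*, which had means of 63660 and 37032 in the DMSO samples. The sum was 143073 to 180424 with BGT226, where 3 rose and 1 fell (24.1% and 6.32% of all genes). With Afatinib the sum was 109905 to 125096, where 1 rose and 2 fell (9.06% and 12.8% of all genes). Of the 8 neutrophil markers, 2 fell with Omipalisib (sum 246 to 416 against 298 to 1008 with DMSO) and 2 with BGT226 (sum 283 to 658), and 0 changed with Afatinib. Of the 9 macrophage markers 2 rose with Omipalisib and 2 with BGT226, and 1 fell with Afatinib. The sum of the 4 endothelial markers, 49 to 360 with DMSO, was 366 to 446 with Omipalisib and 383 to 522 with BGT226, that of the 4 dendritic cell markers, 58 to 89 with DMSO, 115 to 161 with Omipalisib and 35 to 48 with Afatinib, and in each of these lists 1 gene passed the filter. The endothelial gene was *Kdr*, with 46 to 356 in the DMSO samples, where *Cdh5*, *Pecam1* and *Tek* had at most 3, 5 and 0. *Kdr* rose with Omipalisib and BGT226. The dendritic cell gene was *Xcr1*, with 44 to 72 in the DMSO samples, where *Flt3*, *Zbtb46* and *Clec9a* had at most 20, 10 and 3. *Xcr1* rose with Omipalisib and fell with Afatinib. Each of these sums thus largely follows 1 gene and does not stand for a cell type. The 1 marker of B cells and the 2 of fibroblasts that passed the filter did not pass the test with any of these 3 CKIs, and those of T cells, mast cells and basophils and erythroid cells were too low to be tested.

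Such values also moved with calls of other CKIs. With Midostaurin, which raised *Ptges* and *Arg2*, the sum of the LPS response genes was 82079 to 95828, below all DMSO samples. Of these 9 genes 1 rose and 3 fell, where 2.63% of all genes were higher and 1.93% lower. With PH797804, which lowered *Ptges*, the sum was 98993 to 106321, also below DMSO, and 1 rose and 2 fell (0.731% and 1.25% of all genes). With Lapatinib, which raised *Arg2*, the sum was 149846 to 154818, above DMSO, and 3 rose and 1 fell (18.1% and 5.26% of all genes). The neutrophil markers summed to 1336 to 1540 with Lapatinib and 1361 to 1560 with Pimasertib, which lowered *Ptgs2*, above the 298 to 1008 of DMSO. Of the 7 tested, 4 rose with each, where 18.1% and 16% of all genes were higher. The dendritic cell markers summed to 46 to 54 with Midostaurin and 38 to 56 with PH797804, below DMSO, and *Xcr1*, the 1 tested, did not pass. With Apitolisib, AZD2014, Filgotinib and PF04691502 the sums of every list met or overlapped those of DMSO, although single markers passed the test with each. Whether these differences had a part in the results was not tested.

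Values also moved with the replicate number that the labels give. *Arg2* was highest in replicate 1 with 48 of the 58 CKIs and *Ptgs1* with 43, while *Ptges* was highest in replicate 3 with 37 and *Ass1* with 34. The medians of *Arg2* over the CKIs were 119 in replicate 1, 77 in replicate 2 and 74 in replicate 3. Replicate 1 was also the highest sample of both DMSO sets for *Ptgs1* and *Arg2*. With the replicate number as a block 26 pairs were higher and 11 lower, and all 20 calls made without it were kept. The calls of all genes under the block were not counted. Whether the added calls are particular to these members can therefore not be told. With the mitochondrial share added to the block, 18 of the 20 were kept. No member differed between the DMSO sets (adjusted p = 1 for each), where 0 of 12714 genes passed limma's test and 310 had an unadjusted p under 0.05.

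**Figure D5:**
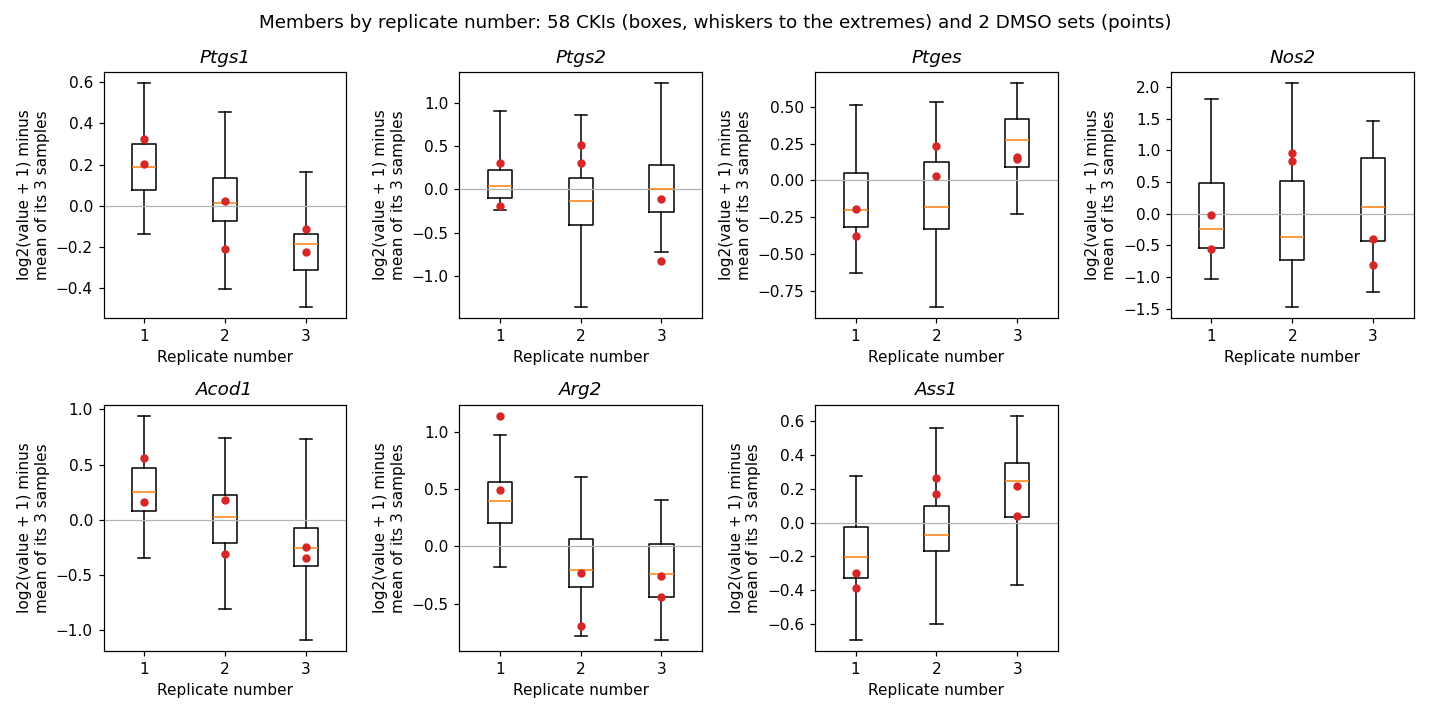
Deviation of each sample from the mean of its condition, on log2(normalized value + 1), by replicate number (x axis) for the 7 genes tested. Boxes give the median and quartiles over the 58 CKIs with whiskers to the extremes and red points the 2 DMSO sets, and replicate 1 lies highest for *Ptgs1*, *Acod1* and *Arg2* while replicate 3 lies highest for *Ptges* and *Ass1*.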

How the data were processed

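RNA-seq values of 180 samples of BMDMs were used, 3 for each of 58 CKIs and 6 for DMSO. The authors aligned reads to mm10 with TopHat2 2.1.1, removed those in blacklisted regions with bedtools 2.29.2, counted the rest on exons of RefSeq genes with R/Bioconductor packages, scaled each sample on genes of stable expression and deposited the values rounded to whole numbers, which is a score without a unit of its own. The authors used DESeq2 in R 3.6.2 for their own tests. Scaling and rounding hide the counting error, which is largest for low genes such as *Arg1*.

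Samples were grouped by their labels, and 0 columns were left without a sample. limma 3.58.1 in R 4.3.3 was fitted to log2(value + 1) of all 59 groups with a variance trend, over the 12714 of 45070 genes with a mean of at least 10, with Benjamini-Hochberg adjustment for each CKI and a threshold of 0.05. The fit was tested on simulated data. The paper describes the RNA as coming from 3 independent biological replicates. The labels give the CKIs and the DMSO sets the replicate numbers 1 to 3 without saying what a number shared between conditions marks. The p-values measure the spread between these samples. Deviations of same-numbered samples correlated at 0.226 on average and those of other numbers at -0.113. The deviations of a condition cancel out, so the second value largely follows from the first and adds no separate evidence. A CKI was taken as paired with DMSO where all 3 same-number correlations were over 0.1, which held for 34 of 58. Afatinib, BGT226, Filgotinib, Omipalisib, PF04691502 and AZD2014 were not among them.

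The members, the lists (prostaglandin, arginine and nitric oxide, itaconate and TCA cycle, cell type markers, LPS response), the motifs and the tests were chosen with earlier results of these data known. All 8 members were described. CKIs were named where a member was called, with every sample given for up to 3 rises and 3 falls beyond all DMSO samples, and up to 3 genes with the largest change were named for each list and for each CKI with 3 calls or more. Other CKIs and genes were named after their values were seen. Likeness was Pearson's over the 59 means. Leaving out a CKI replicate removed that number from every CKI in 1 fit. Alternatives were pseudocounts of 0.5 and 10, no filter or one of 50, scaling by the median of ratios or equal totals, each DMSO set alone, no variance trend, robust moderation, only the groups compared, a log2 fold change of at least 1, the replicate block alone or with the mitochondrial share, and leaving out replicates. Figures were drawn with Python 3.11.15 and matplotlib 3.10.9.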

Additional observations from a re-analysis of the deposited data

How the results depend on the processing

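Of the 20 calls, 5 were kept in all 26 alternative settings, namely *Arg2* with Omipalisib, BGT226 and PF04691502 and *Ptges* with Midostaurin and PH797804. The main counts were 13 pairs higher, 7 lower and 5 members that varied over the 59 conditions. With DMSO set 1 alone 4 pairs were lower, and with DMSO set 2 alone 7 were higher. The replicate block gave 26 higher and 11 lower, the block with the mitochondrial share 11 lower, and both kept the directions of all 20 calls. The calls of all genes were not counted in these settings. Among CKIs that shared only a number with DMSO, the block added calls of *Arg2* with MK2206, Pacritinib, Tofacitinib and X396, of *Ptges* with BGT226 and Mubritinib, of *Nos2* with Mubritinib and of *Acod1* with PF04691502, and 32 of 58 CKIs had every sample correlated best with its own number. Leaving out replicates gave 6 to 22 pairs higher, 2 to 10 lower and 2 to 5 members that varied. The 22 arose without DMSO set 2 replicate 1, which had the highest *Arg2* and *Acod1* values of the DMSO samples. The 6 higher arose without replicate 3 of every group, the 2 lower without replicate 2 of every group, and the 2 varying members without replicate 1 of every group or of the CKIs. A fit of only the groups compared and a minimum fold change give no count of varying members. *Acod1* with Pimasertib, not called at 0.68, was -0.13 under the block with the mitochondrial share. The cause of these shifts was not tested. Median of ratios scaling moved the log2 fold changes of all genes by 0.19 with BGT226, 0.12 with Pimasertib, 0.11 with Apitolisib and Lapatinib and 0.10 with Omipalisib. Low values limit *Arg1*, and the spread of the DMSO samples limits *Nos2*.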
